A study of Mus musculus with 45 samples.

Results

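The genes described here encode the enzymes that make leukotrienes and prostaglandins: *Pla2g4a*, *Alox5*, *Alox5ap*, *Ltc4s*, *Lta4h*, *Ptgs1*, *Ptgs2*, *Ptges*, *Hpgds* and *Tbxas1*. They were chosen by name as the core synthesis enzymes and not by a cut on their values, but with earlier results of these data known. All 10 were listed in each of the 3 count tables, out of 56039 genes in all. The RNA-seq libraries came from C57BL/6 mice, and the titles of the adult microglia and brain tissue samples carry the label WT (wild type). Microglia were flow sorted as live CD11b high, CD45 intermediate cells from neonatal brain slices that had been cultured for 2 weeks and then received medium only (9 libraries), TNF at 50 ng/mL (11 libraries) or GM-CSF at 20 ng/mL (9 libraries) for 24 hours, with 2 to 3 separately treated slices pooled per library and 4 independent experiments in all. The same gate was applied to brains of mice aged 10 to 15 weeks that had been injected 24 hours earlier with PBS (4 libraries) or with LPS, a bacterial endotoxin, at 1 mg/kg (4 libraries), and whole brain tissue was taken from mice of the same age that were untreated (4 libraries) or had received the same LPS dose (4 libraries). The injections were intraperitoneal. Age, culture and count table all differ between the slice and adult libraries. The slice table was fitted on its own, and the adult and brain tables were set against each other only for their LPS effects.

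Both mediator families start from arachidonic acid, which cytosolic phospholipase A2 (*Pla2g4a*) releases from membrane phospholipids. In the leukotriene branch, 5-lipoxygenase (*Alox5*) works with its activating protein (*Alox5ap*) to form leukotriene A4, which leukotriene C4 synthase (*Ltc4s*) conjugates with glutathione and leukotriene A4 hydrolase (*Lta4h*) turns into the neutrophil attractant leukotriene B4. In the prostanoid branch, the cyclooxygenases, constitutive *Ptgs1* and inducible *Ptgs2*, make prostaglandin H2, and a terminal synthase sets the product: *Ptges* makes prostaglandin E2, a mediator of fever and sickness behaviour, *Hpgds* makes prostaglandin D2 and *Tbxas1* makes thromboxane A2. Microglia, the resident macrophages of the brain, are known for abundant *Ptgs1* and *Hpgds*.

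Library totals were 5973364 to 9165485 counts in the slice table, 11391564 to 14216005 in the adult microglia table and 8199863 to 10368578 in the brain table. CPM is the counts of a gene per M counts of its library, after TMM scaling. For 8 microglia markers, *P2ry12* and *Tmem119* among them, summed CPM was 9664 to 26301 in slice and 38080 to 62828 in adult libraries. Brain tissue had 239 to 397, so the sorted cells carried the microglia markers of their label. Slice libraries also held border macrophage markers (6 genes), at 386 to 1053 CPM on medium, 431 to 1209 with TNF and 297 to 900 with GM-CSF. Adult libraries had 10.1 to 15.7 CPM of these after PBS and 27.4 to 44.3 after LPS. With TNF, 2 of the 5 border macrophage markers tested were called lower and 0 higher, where 11.7% of all genes tested were called lower. Of the same 5, 2 were on the higher side, and the median sum of the 6 was 613 CPM on medium and 634 with TNF. The part of such cells in the slice results was not tested. In the brain table a stretch was listed at 0 in all 8 libraries: of 9013 protein-coding genes with at least 500 counts in both microglia tables, 161 had no count in brain tissue, 116 on chromosome 1 and 45 on chromosome 2, and 0 on any other chromosome. *Ptgs2* (chr1:150100031-150108227, plus strand) and *Pla2g4a* (chr1:149829618-149961290, minus strand) lie in the run chr1:143598800-163403669, in which all 57 such genes were listed at 0. No level or change in brain tissue is therefore given for these genes. The border macrophage marker *Mrc1* on chromosome 2 was listed at 0 in the same way.

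Promoter stretches are shown for 5 of the 8 members that changed with TNF, *Ltc4s*, *Ptgs1* and *Hpgds* to lower and *Ptgs2* and *Ptges* to higher levels. The other members that changed are not shown: *Pla2g4a* rose, *Tbxas1* fell, and *Alox5ap*, which fell, had no promoter entry. Each holds 130 bases before and 30 bases after the RefSeq start (GRCm38.p6, 5′ to 3′ on the gene's strand), with motif matches in capitals. The stretches are *Ltc4s* chr11:50238503-50238662 minus, *Ptgs1* chr2:36230296-36230455 plus, *Hpgds* chr6:65144701-65144860 minus, *Ptgs2* chr1:150099901-150100060 plus and *Ptges* chr2:30903268-30903427 minus.
Ltc4s: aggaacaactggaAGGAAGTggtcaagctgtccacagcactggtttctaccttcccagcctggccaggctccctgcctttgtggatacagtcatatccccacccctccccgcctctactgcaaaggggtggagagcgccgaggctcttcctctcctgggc
Ptgs1: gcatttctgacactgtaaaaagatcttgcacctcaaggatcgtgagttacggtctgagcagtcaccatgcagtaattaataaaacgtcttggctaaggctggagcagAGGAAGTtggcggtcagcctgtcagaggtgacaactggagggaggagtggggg
Hpgds: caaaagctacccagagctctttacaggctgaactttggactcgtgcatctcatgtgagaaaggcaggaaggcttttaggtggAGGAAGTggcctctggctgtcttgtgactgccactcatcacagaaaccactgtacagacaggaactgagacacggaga
Ptgs2: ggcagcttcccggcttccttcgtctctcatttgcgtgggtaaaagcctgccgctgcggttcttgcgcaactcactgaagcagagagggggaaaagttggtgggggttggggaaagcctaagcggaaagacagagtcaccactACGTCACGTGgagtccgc
Ptges: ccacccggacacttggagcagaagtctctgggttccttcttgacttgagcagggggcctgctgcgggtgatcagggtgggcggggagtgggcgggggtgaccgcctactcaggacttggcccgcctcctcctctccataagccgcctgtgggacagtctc
The motifs searched on both strands were the TATA box TATAAA, the PU.1 core AGGAAGT (PU.1 is the myeloid lineage factor), the E-box CACGTG, the CRE core TGACGT and the NF-kB consensus. In the full table each promoter spans 300 bases, and 9 of the 10 members had an entry. The PU.1 core was found in promoters of *Ltc4s* (bases -117 to -111 from the start), *Ptgs1* (-23 to -17), *Hpgds* (-48 to -42) and, at the second of its listed starts, *Pla2g4a* (-14 to -8), and it is present in 9.35% of all 32851 promoters. The *Ptgs2* promoter held a CRE core on the opposite strand (13 to 18) that shares 2 bases with an E-box (17 to 22). The CRE core occurs in 7.51% and the E-box in 7.15% of all promoters. The TATA box, in 13.6% of all promoters, was found for *Tbxas1* and, at the same start as its PU.1 core, for *Pla2g4a*. The *Ptges* promoter held none of the 5 motifs. Its RefSeq start lies inside the annotated bounds of the gene (chr2:30889471-30929863, minus strand), and their outer end was not searched. The NF-kB consensus, present in 5.38% of all promoters, was found in 0 of the 9. These matches describe letters in a window and were not tested as binding sites.

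Levels of different genes were compared as CPM per kb of exon. The length was that of all annotated exons of a gene merged, from 1014 bases for *Ltc4s* to 9094 for *Tbxas1*, which can exceed that of the transcript present. The order and ranks depend on this choice. By mean CPM alone, *Tbxas1* (471) and *Hpgds* (267) lay above *Ltc4s* (155) and *Alox5ap* (104) on medium. In slice microglia on medium, *Ptgs1* stood highest at 335 ± 40.6 CPM per kb (SD, n = 9), above 99.0% of the 11313 genes that passed the filter on low counts. *Ltc4s* followed at 153 ± 26.1, then *Alox5ap* at 73.5 ± 17.5, *Tbxas1* at 51.8 ± 5.67, *Hpgds* at 41.5 ± 3.59, *Alox5* at 29.9 ± 5.11, *Pla2g4a* at 17.5 ± 3.20 and *Lta4h* at 14.5 ± 1.92. The inducible pair lay far below, *Ptges* at 1.02 ± 0.321 and *Ptgs2* at 0.643 ± 0.452 CPM per kb. Neighbours in this order from *Alox5ap* to *Alox5*, and *Pla2g4a* with *Lta4h*, had overlapping library ranges, and so had *Ptges* with *Ptgs2*. Adult microglia after PBS again had *Ptgs1* first, at 381 ± 19.2 CPM per kb (n = 4), and *Ltc4s* next, at 224 ± 13.9, with no overlap between neighbours down to *Lta4h* at 9.60 ± 0.657. In untreated brain tissue the order was different. *Lta4h* led at 5.86 ± 0.212 CPM per kb, *Ptgs1* reached 3.96 ± 0.404 and *Ltc4s* 1.97 ± 0.811, and *Alox5* was the lowest of the 8 members with counts at 0.131 ± 0.0882. The tables come from different runs, the brain libraries were made with another kit, and the slice libraries were counted differently from the others. These levels therefore stand side by side without a test.

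**Figure D1:**
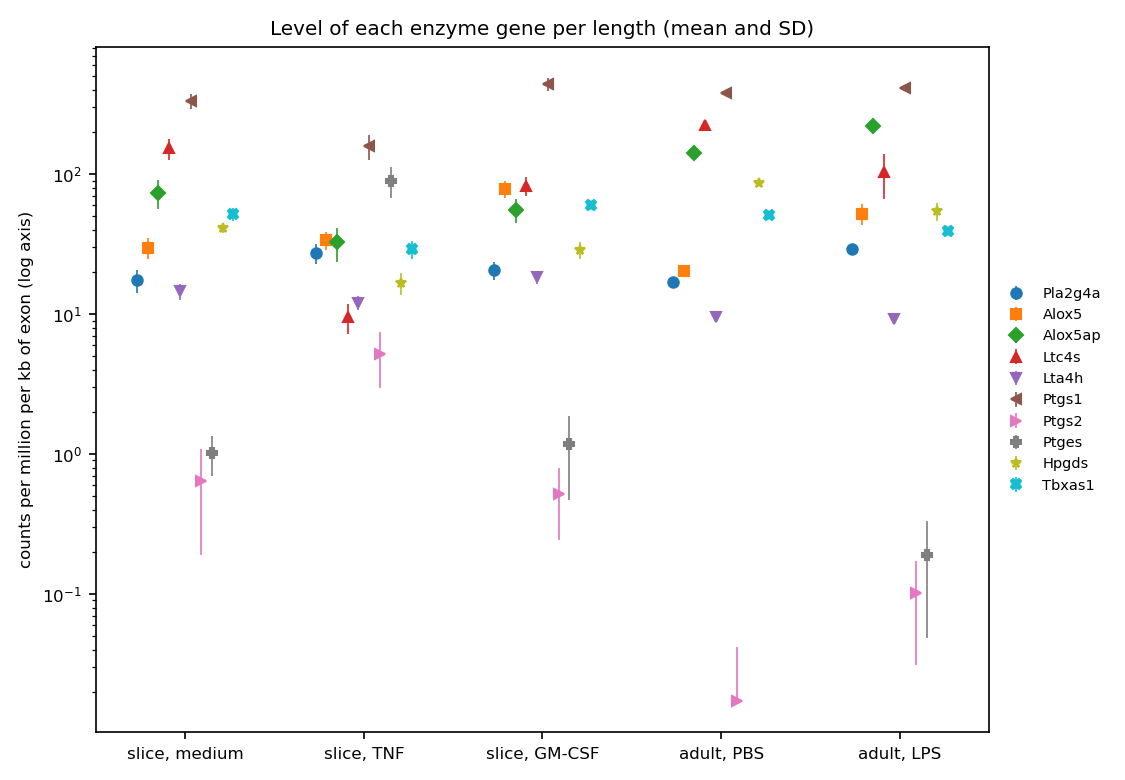
Mean level of each enzyme gene in CPM per kb of exon (log axis) in the 3 slice groups (n = 9, 11 and 9) and the adult PBS and LPS groups (n = 4 each). Bars are SD, with the lower bar left out where the SD exceeds the mean, and *Ptges* after PBS, at 0 in all 4 libraries, has no symbol. *Ptgs1* is highest in all 5 groups, while *Ptges* stands at 1.02 on medium and 90.0 with TNF.

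TNF, an inflammatory cytokine of activated microglia, changed 8 of the 10 genes: *Ptges*, *Ptgs2* and *Pla2g4a* rose and *Ltc4s*, *Hpgds*, *Alox5ap*, *Ptgs1* and *Tbxas1* fell. A gene counts as called here where it differed more than 1.5-fold and edgeR's quasi-likelihood test put its adjusted p below 0.05, and 20.8% of all 11313 genes tested were called in this comparison (9.1% higher, 11.7% lower). The median log2 fold change of the 10 was -0.55, against -0.03 over all genes tested. The summed CPM of the 8 microglia markers was 19218 to 26301 on medium and 9664 to 12496 with TNF. In bulk libraries, fewer cells of a type and less RNA per cell cannot be told apart, and the part of this shift in the results was not tested.

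The phospholipase that supplies arachidonic acid rose modestly. *Pla2g4a* was at 83.9, 108 and 143 CPM (lowest, median and highest library) on medium and at 134, 169 and 232 CPM with TNF, and 10 of 11 TNF libraries lay above every medium library. It rose 1.57-fold (0.65 on the log2 scale, SE 0.10, edgeR adjusted p = 2.06e-06), close to the fold limit, and scaling by total counts put the log2 value at 0.58, under that limit.

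In the leukotriene branch the fall of *Ltc4s* stood out. *Ltc4s* (chr11:50236461-50238616, minus strand) was at 123, 149 and 196 CPM on medium and at 6.52, 9.86 and 13.5 CPM with TNF, so that the highest TNF library lay far under the lowest medium library. It fell 16.05-fold (log2 fold change -4.00, SE 0.13, edgeR adjusted p = 1.58e-22) and had the smallest p of all genes tested. *Alox5ap* (chr5:149264767-149288153, plus strand) went from 78.9, 94.6 and 158 CPM to 33.0, 41.2 and 68.0 CPM, without overlap, and fell 2.26-fold (log2 fold change -1.18, SE 0.14, adjusted p = 1.29e-08). *Alox5* itself (chr6:116410077-116461178, minus strand) was at 95.5, 121 and 158 CPM on medium and 101, 138 and 171 CPM with TNF. The groups overlapped in all but 2 TNF libraries, and the log2 fold change of 0.18 (95% confidence interval -0.01 to 0.38, adjusted p = 0.131) did not pass the test. *Lta4h* (chr10:93453411-93484875, plus strand) was 1.20-fold lower (log2 fold change -0.27, adjusted p = 0.00699), which is under the fold limit. Per length, *Ltc4s* thus went from rank 2 among the 10 enzymes on medium to rank 9 with TNF, at 9.55 ± 2.35 CPM per kb (n = 11), a range that overlapped those of *Lta4h* and *Ptgs2*.

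In the prostanoid branch the prostaglandin E2 synthase and the inducible cyclooxygenase rose, and the other enzymes fell. *Ptges* (chr2:30889471-30929863, minus strand) was at 2.49, 3.69 and 5.89 CPM on medium and at 233, 331 and 483 CPM with TNF, and no library came near the other group. It rose 88.2-fold (6.46 on the log2 scale, SE 0.26, adjusted p = 2.35e-19). *Ptgs2* was at 0, 3.21 and 5.68 CPM on medium and at 13.9, 20.1 and 47.1 CPM with TNF, again without overlap, and rose 8.04-fold (log2 fold change 3.01, SE 0.39, adjusted p = 8.42e-08). *Ptgs1* (chr2:36230426-36252272, plus strand) fell from 1006, 1317 and 1515 CPM to 441, 610 and 783 CPM, a 2.11-fold decrease (log2 fold change -1.08, SE 0.09, adjusted p = 9.65e-12). Even so, *Ptgs1* stayed at 159 ± 31.6 CPM per kb with TNF, against 5.18 ± 2.22 for *Ptgs2*, so the constitutive cyclooxygenase transcript remained the more abundant of the pair in every library.

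The other terminal synthases went the opposite way to *Ptges*. *Hpgds* (chr6:65117293-65144908, minus strand) went from 223, 266 and 301 CPM to 71.6, 111 and 134 CPM and fell 2.50-fold (log2 fold change -1.32, SE 0.09, adjusted p = 3.05e-14). *Tbxas1* (chr6:38875404-39084585, plus strand) went from 378, 465.9 and 547 CPM to 215, 264 and 337 CPM and fell 1.78-fold (log2 fold change -0.83, SE 0.07, adjusted p = 6.74e-12). Neither gene had an overlapping library. On the per kb scale *Ptges* therefore moved from 1.02 ± 0.321, below *Tbxas1* (51.8) and *Hpgds* (41.5), to 90.0 ± 22.4, above *Tbxas1* (29.1) and *Hpgds* (16.6). Mast cells also use *Ltc4s*, *Hpgds* and *Ptgs2*, and the summed CPM of 7 mast cell markers had a median of 0 on medium and with TNF. The highest sums were 7.81 in medium replicate 4 and 10.5 in TNF replicate 2, and no other library of these groups passed 0.795. The summed neutrophil markers (8 genes) reached 128 CPM in TNF replicate 6 and 22.5 in the next TNF library, against at most 15.8 on medium. Whether mast cells or neutrophils had a part in the changes with TNF was not tested. Leaving out any library in turn left all 8 calls. The slice titles carry 4 codes (1A, 1B, 2A and 2B) whose meaning is not given, and whether they mark the 4 experiments is not stated, so the fit took the libraries as independent. The same 8 genes were called with the code as a covariate, within codes 1A and 1B alone and within 2A and 2B alone, as were the 2 genes called with GM-CSF.

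**Figure D2:**
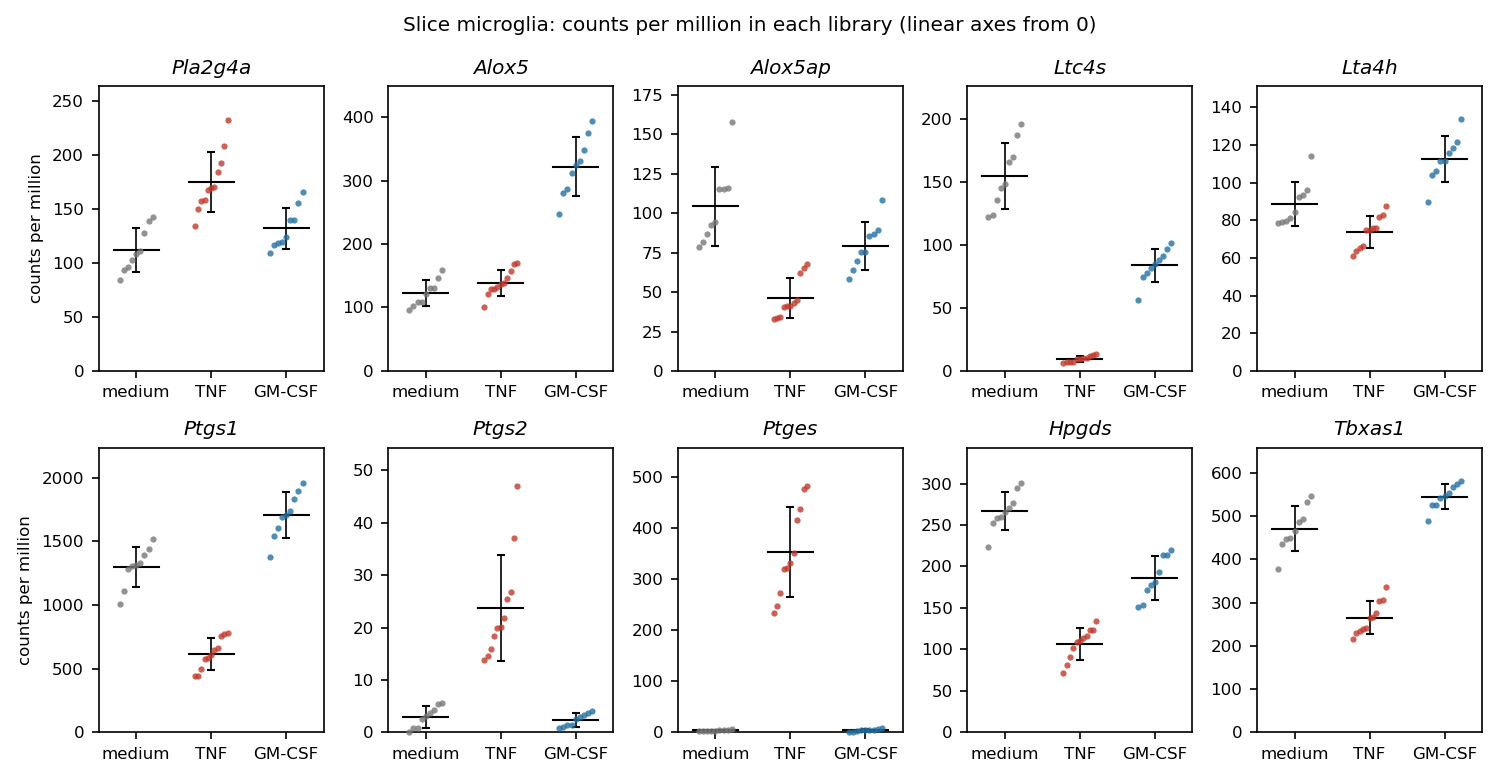
CPM of each enzyme gene in every slice microglia library (points, drawn by value within a group) on medium, TNF or GM-CSF, with linear axes from 0; lines and bars are mean and SD (n = 9, 11 and 9). *Ltc4s* falls to 6.52 to 13.5 CPM and *Ptges* rises to 233 to 483 CPM with TNF, and *Alox5* rises to 248 to 393 CPM with GM-CSF.

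GM-CSF, a growth factor for myeloid cells, gave a different and narrower pattern: 2 of the 10 genes were called, *Alox5* higher and *Ltc4s* lower, where 10.8% of all genes tested were called (4.84% higher, 5.96% lower). The median log2 fold change of the 10 was 0.20, against -0.04 over all genes. *Alox5* was at 248, 325 and 393 CPM with GM-CSF, each library above every medium library (at most 158 CPM), and rose 2.63-fold (log2 fold change 1.39, SE 0.10, edgeR adjusted p = 6.52e-13). *Ltc4s* was at 56.5, 85.4 and 102 CPM, each library below the lowest medium library (123 CPM), and fell 1.85-fold (log2 fold change -0.89, SE 0.12, adjusted p = 5.24e-07). Beside these changes, the summed CPM of the 8 microglia markers was 13925 to 15487 with GM-CSF, below the 19218 to 26301 on medium without overlap, and 6 of the 8 were called lower. The part of this shift in the fall of *Ltc4s* was not tested. The first enzyme of the leukotriene branch and its last conjugating enzyme thus went in opposite directions. The neutrophil markers, whose cells also use *Alox5*, summed to 3.19 to 44.1 CPM with GM-CSF and 0.834 to 15.8 on medium, and their part in the rise of *Alox5* was not tested.

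A further 5 genes had an adjusted p under 0.05 with GM-CSF at changes under the fold limit. *Hpgds* was lower in all 9 libraries than in any medium library (log2 fold change -0.52, adjusted p = 7.12e-05), and *Alox5ap* was at -0.40 (adjusted p = 0.0416). *Ptgs1* (0.39, adjusted p = 0.00265), *Lta4h* (0.34, adjusted p = 0.00202) and *Tbxas1* (0.21, adjusted p = 0.0346) were on the higher side. For the inducible genes no change was detected: *Ptges* was at 1.23, 4.12 and 9.59 CPM (log2 fold change 0.20, 95% confidence interval -0.39 to 0.78, adjusted p = 0.679) and *Ptgs2* at 0.801, 2.49 and 4.12 CPM (-0.31, interval -1.15 to 0.54, adjusted p = 0.649). These intervals leave out changes of the size seen with TNF. *Pla2g4a* had a log2 fold change of 0.24 (interval 0.03 to 0.45, adjusted p = 0.0900).

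Set directly against each other, TNF and GM-CSF libraries differed in 9 of the 10 genes, where 16.2% of all genes tested were called (8.25% higher, 7.96% lower with TNF). *Ptges* was 76.9-fold and *Ptgs2* 9.95-fold higher with TNF. *Ltc4s* (8.68-fold), *Ptgs1* (2.77-fold), *Alox5* (2.32-fold), *Tbxas1* (2.06-fold), *Hpgds* (1.74-fold), *Alox5ap* (1.72-fold) and *Lta4h* (1.53-fold) were lower with TNF, with edgeR adjusted p values from 2.92e-20 for *Ltc4s* to 3.09e-05 for *Alox5ap*. *Pla2g4a* differed by 0.41 on the log2 scale (adjusted p = 0.00150), under the fold limit. The call for *Lta4h* was lost without GM-CSF replicate 7, where its log2 difference was -0.58. The 2 cytokine groups share their medium controls, so only this direct comparison speaks to the difference between them.

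In adult microglia, LPS raised *Alox5*, *Alox5ap* and *Pla2g4a* and lowered *Ltc4s* and *Hpgds*: 5 of the 8 genes that passed the filter were called, where 27.4% of all 12987 genes tested were called (14.4% higher, 13% lower). The median log2 fold change of the 8 was 0.03, against 0.01 over all genes. *Pla2g4a* was at 114, 107, 104 and 110 CPM in PBS replicates 1 to 4 and at 185, 191, 182 and 192 CPM in the LPS replicates. All LPS libraries lay above all PBS libraries, and the gene rose 1.72-fold (log2 fold change 0.79, SE 0.06, edgeR adjusted p = 1.32e-06).

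*Alox5* was at 80.8, 84.3, 74.6 and 94.2 CPM after PBS and at 239, 162, 234 and 225 CPM after LPS, with replicate 2 the lowest LPS library but still above every PBS library. It rose 2.58-fold (log2 fold change 1.37, SE 0.12, adjusted p = 6.29e-06). *Alox5ap* was at 193, 202, 200 and 211 CPM after PBS and at 316, 284, 343 and 311 CPM after LPS and rose 1.56-fold (log2 fold change 0.64, SE 0.07, adjusted p = 1.69e-05). In slice microglia with TNF the same gene fell. *Ltc4s* was at 211, 220, 237 and 241 CPM after PBS and at 80.7, 150, 119 and 68.1 CPM after LPS. The LPS libraries were spread widely, with replicate 2 highest, and all lay below the PBS libraries: *Ltc4s* fell 2.18-fold (log2 fold change -1.12, SE 0.23, adjusted p = 0.00436). *Lta4h* did not pass the test (log2 fold change -0.07, 95% confidence interval -0.23 to 0.10, adjusted p = 0.492). LPS thus raised the transcripts of leukotriene A4 formation while that of leukotriene C4 synthase fell.

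Of the prostanoid enzymes, *Hpgds* was at 564, 572, 541 and 545 CPM after PBS and at 336, 421, 328 and 311 CPM after LPS, without overlap, and fell 1.59-fold (log2 fold change -0.67, SE 0.09, adjusted p = 7.75e-05). *Tbxas1* had 447 to 474 CPM after PBS and 334 to 388 CPM after LPS (log2 fold change -0.38, adjusted p = 0.000428), under the fold limit although the groups did not overlap. *Ptgs1* was at 1414 to 1583 CPM after PBS and 1532 to 1700 CPM after LPS (log2 fold change 0.12, interval -0.03 to 0.26, adjusted p = 0.163). *Ptges* and *Ptgs2* were too low for the filter. *Ptges* had 0 counts in all 4 PBS libraries and 7, 1, 14 and 18 counts in the LPS libraries. The ratio was 13.9 when the PBS group was set at the 3 counts that a count of 0 allows over the group. The 40 LPS counts were taken as they stand. *Ptgs2* had 1, 0, 3 and 0 counts after PBS and 8, 0, 7 and 10 after LPS, a ratio of 6.51 with an exact 95% counting interval of 2.25 to 25.7. LPS replicate 2 again stood apart as the lowest LPS library for both. The ratio for *Ptges* allows for counting error in the PBS group only, and the interval for *Ptgs2* for that in both groups. Neither covers the spread between libraries. With no filter edgeR gave adjusted p = 3.04e-06 for *Ptges* and 0.0309 for *Ptgs2*. At 0.749 CPM after LPS, the mean of *Ptges* was small beside the 354 CPM reached with TNF in slices, measured in another table.

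Markers of other cells also moved with LPS in the adult table. The summed CPM of 8 neutrophil markers was 40.9 to 84.3 after PBS and 2.99 to 9.33 after LPS (7 of 8 with counts, *Retnlg* at 0). Summed platelet markers, of cells rich in *Tbxas1* and *Ptgs1*, went from 29.96 to 34.6 down to 5.45 to 11.8 CPM. Only 1 of these 6 markers passed the filter, and it was called lower, so the sum says little of platelets as cells. Border macrophage markers went from 10.1 to 15.7 up to 27.4 to 44.3 CPM, and microglia markers from 56411 to 62828 down to 38080 to 44200 CPM. Mast cell markers had counts for 1 of 7 genes after PBS, at no more than 0.0721 CPM, and for 0 of 7 after LPS. The part of these shifts in the changes of the enzyme genes was not tested.

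**Figure D3:**
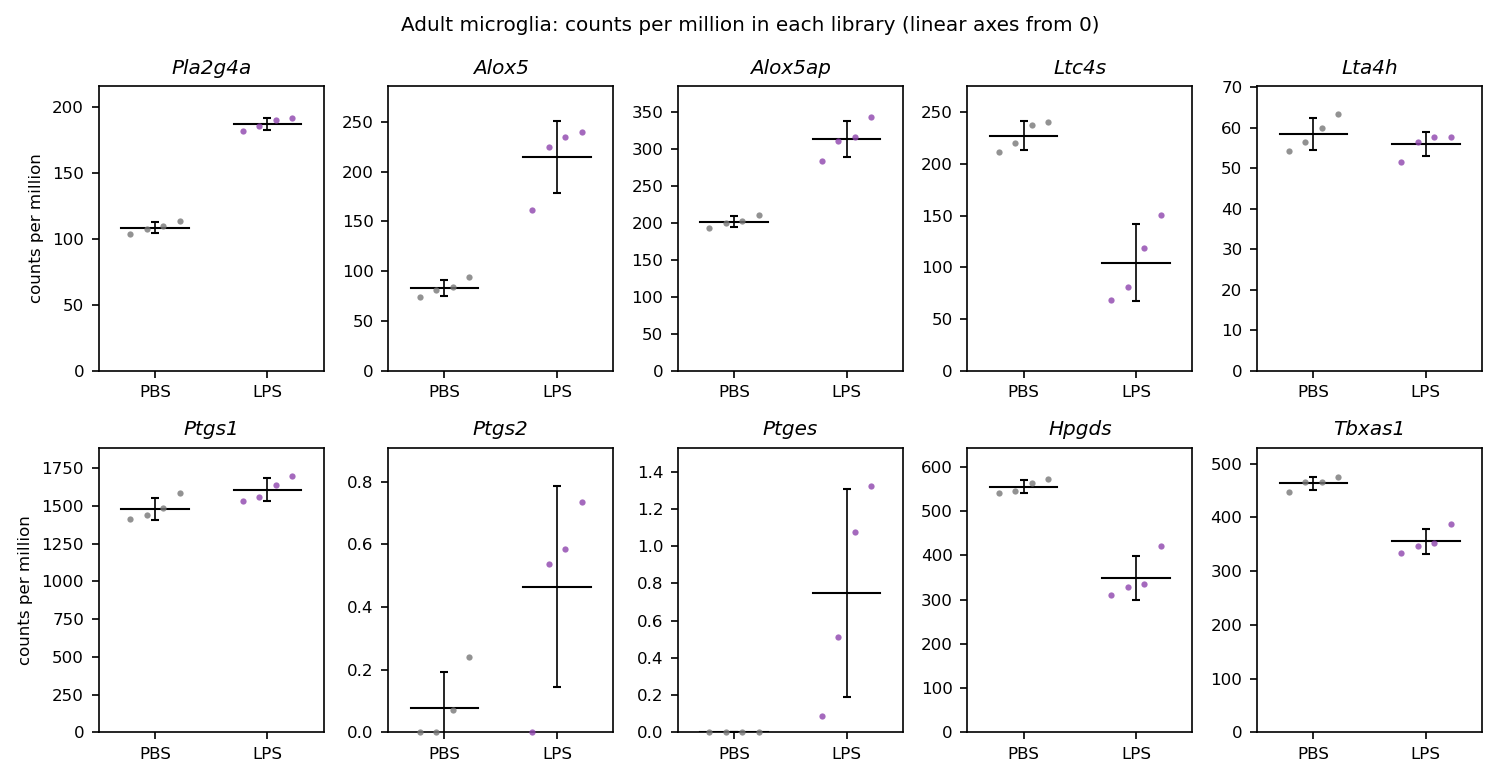
CPM of each enzyme gene in every adult microglia library (points, drawn by value within a group) after PBS or LPS, with linear axes from 0; lines and bars are mean and SD (n = 4 each). *Ltc4s* lies at 68.1 to 150 CPM after LPS and 211 to 241 after PBS, and *Ptges* and *Ptgs2* stay near 1 CPM or below.

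In whole brain tissue, where microglia are a small share of the cells, LPS changed 2 of the 8 genes tested, *Alox5* and *Alox5ap*, both higher, where 3.18% of all 15083 genes tested were called (2.63% higher, 0.55% lower). The median log2 fold change of the 8 was 0.13, against 0.00 over all genes. *Alox5* had 2, 4, 5 and 10 counts in the untreated libraries and 18, 22, 34 and 36 counts after LPS, or 0.201 to 1.04 CPM against 1.90 to 4.11 CPM, and rose 5.78-fold (log2 fold change 2.53, SE 0.40, edgeR adjusted p = 0.000665). *Alox5ap* was at 3.12, 2.82, 2.48 and 2.51 CPM untreated and at 5.70, 6.60, 4.83 and 5.73 CPM after LPS and rose 2.09-fold (log2 fold change 1.06, SE 0.17, adjusted p = 0.000831). Neither gene had overlapping groups, but both rest on few counts, and with a minimum count of 50 neither was tested.

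The other genes did not pass. *Ptges* was at 3.42, 4.86, 5.07 and 3.45 CPM untreated and at 4.43, 6.84, 7.49 and 7.41 CPM after LPS, with LPS replicate 1 inside the untreated range (log2 fold change 0.63, SE 0.20, adjusted p = 0.0571). *Ltc4s* was at 1.15 to 3.10 CPM untreated and 1.16 to 2.95 CPM after LPS (log2 fold change -0.04, interval -0.77 to 0.68, adjusted p = 0.961). *Lta4h* (0.12, adjusted p = 0.220), *Ptgs1* (0.13, adjusted p = 0.604), *Hpgds* (-0.19, adjusted p = 0.589) and *Tbxas1* (-0.39, adjusted p = 0.447) stayed within the error. Beside *Alox5* and *Alox5ap*, the summed neutrophil markers went from 1.36 to 3.10 up to 4.83 to 9.77 CPM and the border macrophage markers (5 of 6, *Mrc1* listed at 0) from 5.13 to 7.24 up to 9.43 to 13.8 CPM. The microglia markers stood at 292 to 334 CPM untreated and 239 to 397 CPM after LPS. Endothelial markers went from 152 to 166 up to 213 to 257 CPM. The part of these cells in the results was not tested.

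The 2 LPS effects were also compared directly, as an interaction in a fit of the 16 libraries, in which 30.8% of all 16676 genes tested passed an adjusted p of 0.05. Among the members, 2 passed. For *Alox5ap* the rise was smaller in adult microglia than in brain tissue by 0.43 on the log2 scale (SE 0.15, adjusted p = 0.0397), although 9 of the 16 fits that left out a library lost this call. For *Ptges* the effects differed (adjusted p = 0.00193), but no size is given since all PBS libraries were at 0. *Ptges* was too low for the filter in the adult libraries alone and passed it here only through the brain libraries. Its adult side rests on 40 counts after LPS. *Alox5* differed by -1.18 (95% confidence interval -2.19 to -0.16, adjusted p = 0.0690) and *Ltc4s* by -1.09 (interval -2.41 to 0.23, adjusted p = 0.216), neither past the threshold. The library preparation kit, the run and the kind of control coincide with the kind of sample. The adult controls were injected with PBS and the brain controls were untreated, so the brain effect includes the injection itself. These differences cannot be told apart from those of kit, run and control.

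**Figure D4:**
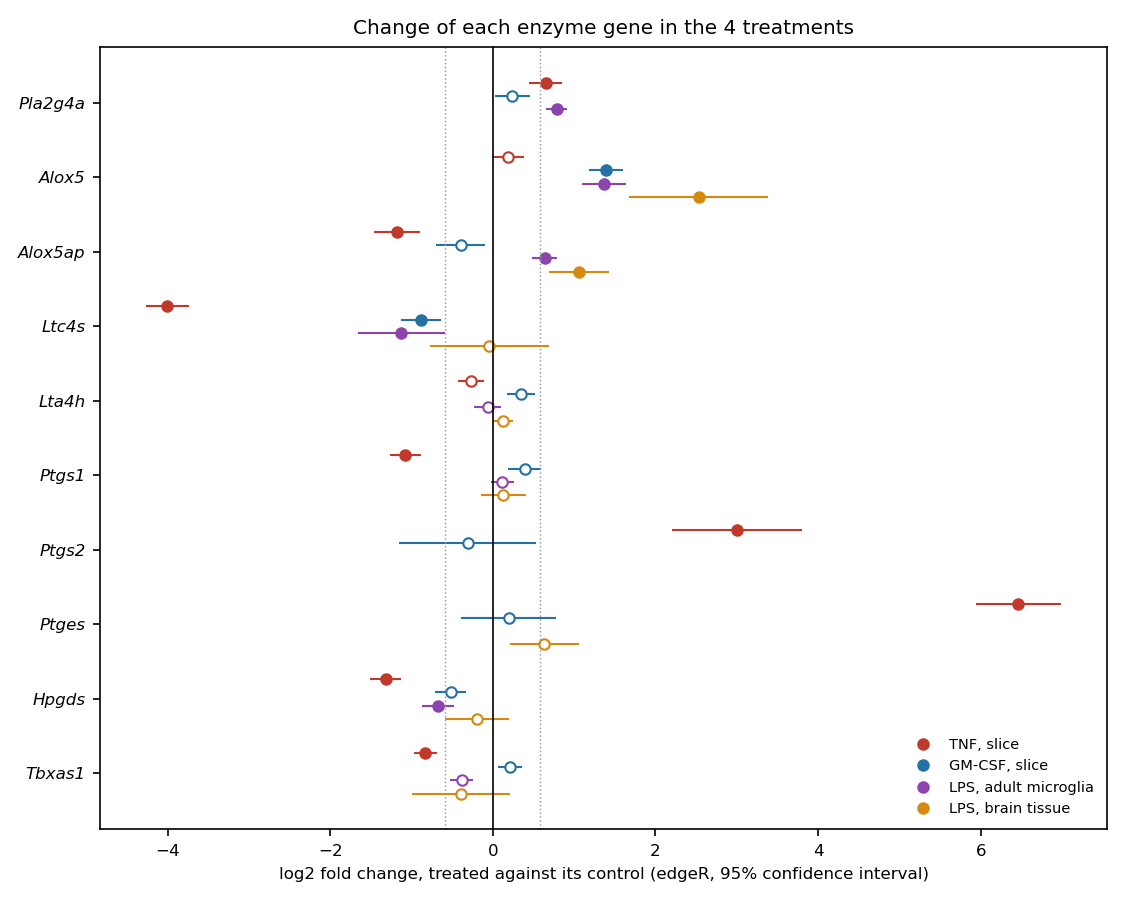
Log2 fold change of each enzyme gene with its 95% confidence interval (edgeR) in the 4 treatments, each against its own control; filled symbols were called (adjusted p under 0.05 and fold over 1.5, the dotted lines), open symbols were not, and genes without a symbol were not tested. *Ltc4s* lies at -4.00 with TNF, -0.89 with GM-CSF and -1.12 with LPS in adult microglia, and *Alox5* at 0.18, 1.39 and 1.37.

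Around the core enzymes, 6 lists of 56 genes covered arachidonate supply, other prostanoid synthases, other lipoxygenases and leukotriene enzymes, catabolism and export, and the prostanoid and leukotriene receptors. Beside the counts in these lists stand the shares called over all genes tested. They were 20.8% with TNF, 10.8% with GM-CSF, 27.4% with LPS in adult microglia and 3.18% with LPS in brain tissue. The lists are short, and their counts were not tested against these shares. In arachidonate supply (13 genes, 9 tested in slices), TNF raised 1 and lowered 3. The fatty acid ligase *Acsl4*, which activates arachidonate for storage in phospholipids, rose (log2 fold change 0.78), and the diacylglycerol lipase *Daglb* (-1.27), the lysosomal phospholipase *Pla2g15* (-1.16) and the monoacylglycerol lipase *Mgll* (-1.08) fell. GM-CSF raised *Acsl4* (0.79) and lowered *Daglb* (-0.92). LPS in adult microglia raised 1 of 10 tested, the calcium-independent phospholipase *Pla2g6* (0.61), and lowered 1, *Mgll* (-1.87, from 78.8 ± 3.14 to 21.6 ± 5.36 CPM, n = 4), and changed 0 of 11 in brain tissue.

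Of the genes of catabolism and export, *Hpgd* fell in all 3 microglia comparisons with a control. *Hpgd*, 15-hydroxyprostaglandin dehydrogenase, which inactivates prostaglandin E2, was at 115, 180 and 475 CPM on medium and at 16.3, 24.3 and 71.8 CPM with TNF, without overlap, and fell (log2 fold change -2.78, SE 0.27, edgeR adjusted p = 5.85e-10). It also fell with GM-CSF (-1.25) and with LPS in adult microglia (-1.75, from 542 ± 18.3 to 161 ± 38.4 CPM, n = 4). With TNF, the synthase of prostaglandin E2 thus rose in the same libraries in which this inactivating enzyme fell. The leukotriene C4 exporter *Abcc1* rose with TNF (1.02). *Cyp4f18*, which inactivates leukotriene B4, fell with TNF (-1.11) and GM-CSF (-0.76) and rose with LPS in adult microglia (5.92, SE 0.52, from 1.05 ± 0.314 to 64.1 ± 27.1 CPM, n = 4). Of the 7 genes tested, 1 rose and 2 fell with TNF, 1 rose (*Ptgr3*, 0.82) and 2 fell with GM-CSF, and 2 rose (the second was *Ptgr1*, 0.59) and 1 fell with LPS in adult microglia. In brain tissue 0 of 8 were called, where 3.18% of all genes tested were.

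Most receptors were too low to test. Of 9 prostanoid receptor genes 3 were tested in slices. The prostaglandin E2 receptor *Ptger4* went from 55.4 ± 12.8 CPM (n = 9) to 163 ± 15.8 CPM (n = 11) with TNF (log2 fold change 1.56, SE 0.11, edgeR adjusted p = 8.83e-14), and the prostacyclin receptor *Ptgir* from 4.60 ± 3.36 to 20.6 ± 6.87 CPM (2.16). With GM-CSF 0 of the 3 were called, and *Ptger4* had a log2 fold change of 0.45 (adjusted p = 0.00331), under the fold limit. In adult microglia LPS raised *Ptger4* (4.02, from 1.72 ± 0.598 to 27.9 ± 12.4 CPM) and lowered another prostaglandin E2 receptor, *Ptger3* (-2.84, from 12.5 ± 0.398 to 1.74 ± 0.473 CPM), 2 of 3 tested. Of 6 leukotriene receptor genes only *Cysltr1*, a receptor for cysteinyl leukotrienes, was tested in microglia, and it was called in none of the microglia comparisons with a control (log2 fold change -0.12 with TNF, -0.10 with GM-CSF and 0.10 with LPS). In brain tissue it rose with LPS (1.20, adjusted p = 0.0321), on 5 or more counts in every library. Of the other lipoxygenases and leukotriene enzymes (11 genes, 4 tested in slices), *Ggt5*, which converts leukotriene C4 to D4, fell with TNF (-2.14) and GM-CSF (-1.32), *Mgst3* fell with TNF (-0.89), and *Aloxe3* fell with LPS in adult microglia (-1.27). Of the other prostanoid synthases (8 genes, 5 tested in slices), only *Cbr1* was called, lower with LPS in adult microglia (-0.74).

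**Figure D5:**
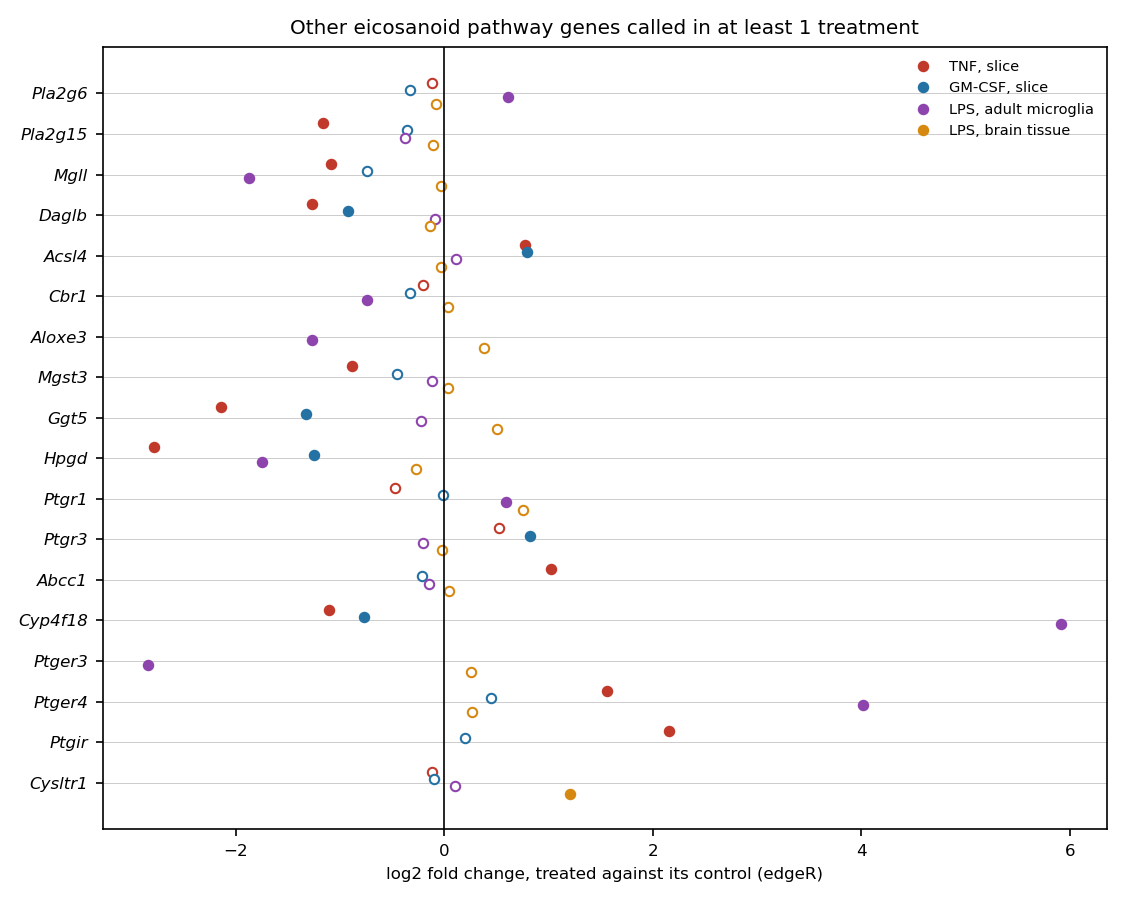
Log2 fold change (edgeR) of the 18 other eicosanoid pathway genes called in at least 1 of the 4 treatments, each against its own control; filled symbols were called, open symbols were not, and missing symbols were not tested. *Hpgd* is called lower in 3 treatments (-2.78, -1.25 and -1.75), and *Ptger4* higher with TNF (1.56) and with LPS in adult microglia (4.02).

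Genes whose pattern was most like that of a member were sought over the 29 slice libraries. Across the 3 treatments, log2 CPM of *Ltc4s* followed that of *Olfml3* (Pearson r = 0.97), *P2ry13* (0.97), *Slco2b1* (0.97) and *Gas6* (0.96) most closely, values that rest on the distance between the treatment groups. With the treatment means subtracted, the closest genes were *Htra3* for *Ptgs1* (0.90), *Tnfsf13b* for *Pla2g4a* (0.80), *Cd302* for *Alox5ap* (0.79), *Atp2b1* for *Hpgds* (0.78), *Abtb2* for *Ptgs2* (0.75), *Dclre1c* for *Ptges* (0.72), *Gorasp2* for *Alox5* (0.71) and *Lrig3* for *Lta4h* (0.66). Among the members, *Alox5ap* with *Pla2g4a* (0.72) and *Ptgs1* with *Tbxas1* (0.69) were the closest pairs, and *Ptgs2* with *Ptges* had r = 0.44. These are descriptions over libraries that share one table and its normalization, with no test.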

How the data were processed

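RNA-seq gene counts of 45 samples in 7 groups were taken from 3 tables. The authors deposited counts for slice microglia (STAR 2.7.0a and featureCounts of Subread 1.6.4 are among the tools named, genome build mm10) and expected counts, which need not be whole, for adult microglia and brain tissue (mm10). For the expected counts the program is not given in the sources used here. They were rounded to whole numbers. Microglia libraries were made with SMART-Seq v4 and Nextera XT, and brain libraries with a TruSeq mRNA kit. Gene names and exon lengths came from GENCODE M21, and promoter sequences from RefSeq (GRCm38.p6). Of the rows for brain tissue, 92 named no gene and held 0 counts, and they were left out.

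Genes were filtered with filterByExpr (minimum count 10, total 15), scaled by TMM and tested with edgeR 4.0.16 (R 4.3.3) by the quasi-likelihood test, two-sided, with Benjamini-Hochberg adjustment over all genes tested in a comparison. The 29 slice samples shared a fit, and the adult and brain samples each had their own. The difference of the LPS effects was fitted as an interaction over 16 samples. A call needed an adjusted p under 0.05 and a fold over 1.5, or for the interaction the adjusted p alone. The tests were tried first on simulated data.

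Total counts per sample (5973364 to 14216005 over the tables) set the precision, and the error given is the SD or SE between samples. Slice libraries pooled 2 to 3 slices each and came from 4 experiments. The sources used here do not tie libraries to experiments or slices to animals, so p-values measure the spread between these samples. Groups came from the sample labels, and no libraries agreed within sampling noise.

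The antisense genes Gm26542, Gm19719, Gm43621 and Gm42962 share 268, 189, 148 and 144 exon bases with *Ltc4s*, *Alox5ap*, *Ptgs1* and *Tbxas1*. Whether counting used strand is not given in the sources used here, so reads of such pairs cannot be told apart. Gm26542 held 548 counts in the adult table beside 17625 for *Ltc4s*.

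Members and lists were chosen with earlier results of these data known. All 10 members are named throughout. Pathway genes are named where called in a treatment (at most 4 per list and treatment), and genes of like pattern are those with the highest r over the slice libraries, of which some are not reported here. Alternatives were other scalings (DESeq2 size factors, total counts), no filter or a minimum count of 50, limma-voom 3.58.1, DESeq2 1.42.0, a replicate block, no fold limit, each library left out, and in slices the title code as covariate, pairs of codes alone and fits of 2 groups.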

Additional observations from a re-analysis of the deposited data

Results flagged for a closer look

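Among 55 sets of values of a member in a group, 2 had a library apart from the others by Dixon's test, where chance gives about 1 in 20. The slice TNF group, with 11 libraries, was too large for the limits used and was not screened. *Alox5ap* was at 158 CPM in medium replicate 5, against 78.9 to 116 CPM in the other 8 medium libraries. *Lta4h* was at 114 CPM in medium replicate 4, against 78.4 to 96.0 CPM in the other 8. The call for *Alox5ap* with TNF and the lack of a call for *Lta4h* held without the library concerned.

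The LPS effects in adult microglia and in brain tissue differed by the interaction test for *Alox5ap* (edgeR adjusted p = 0.0397), which rose in both, by 0.64 in adult microglia and by 1.06 in brain tissue on the log2 scale. They also differed for *Ptges* (adjusted p = 0.00193), which passed the filter only through the brain libraries. In adult microglia *Ptges* had 0 counts in the 4 PBS libraries and 1 to 18 in the LPS libraries. In brain tissue it was at 4.20 ± 0.889 CPM untreated and 6.54 ± 1.44 CPM after LPS (SD, n = 4). The controls were injected with PBS for adult microglia and untreated for brain tissue.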

How the results depend on the processing

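Besides fits that left out a library, 481 recomputed log2 fold changes of members kept direction and call, 4 turned, 5 came past the threshold and 3 lost it. With no fold limit, 4476 genes were called with TNF, 2892 with GM-CSF, 3486 between them, 6703 with LPS in adult microglia and 1533 in brain tissue, and 7 members with GM-CSF. Codes 2A and 2B alone gave 785 genes with GM-CSF. A minimum count of 50 gave 288 genes and 0 members in brain tissue, since it removed *Alox5* and *Alox5ap* from the test. For the interaction, 1 member was called with no filter and with limma-voom (*Ptges* in each), and 4 with DESeq2 (*Alox5*, *Alox5ap*, *Ptges* and *Hpgds*). Directions turned for *Ptgs2* with GM-CSF (0.20, limma-voom) and, in the interaction, for *Ptgs1* (0.0074, no filter) and *Tbxas1* (0.025, no filter, and 0.054, limma-voom), none of them called. The cause was not tested.

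Replicate numbers did not pair the samples: same-numbered samples deviated with r from -0.04 to 0.18 in slices, -0.08 to 0.04 in brain tissue and -0.03 to 0.02 in sorted adult cells. A replicate block brought *Ptges* in brain tissue (adjusted p = 0.0447) and *Alox5* in the interaction (adjusted p = 0.0285) past the threshold.

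Leaving out each library gave 2289 to 2385 genes with TNF, 1137 to 1235 with GM-CSF, 1782 to 1861 between them, 3373 to 4044 with LPS in adult microglia, 412 to 543 in brain tissue and 4676 to 5678 for the interaction. Members called were 8 to 8, 2 to 2, 8 to 9, 5 to 5, 2 to 3 (*Ptges* joined without LPS replicate 1) and 1 to 3. Log2 fold changes that changed sign, none called, ranged from -0.014 (without GM-CSF replicate 7) to 0.32 for *Ptges* with GM-CSF and from -0.31 to 0.24 for *Ltc4s* in brain tissue. In the interaction they ranged from -0.14 to 0.077 for *Ptgs1* and from -0.23 to 0.19 for *Tbxas1*. An alternative chosen after seeing the data, the interaction without genes at 0 in every brain library, changed no member's call. Low counts limit *Ptges* and *Ptgs2* in adult microglia and *Alox5* in brain tissue.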
